A study of Mus musculus with 3 samples.

Results

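Binding of GLI3 was examined around 9 genes of fibroblast growth factor (FGF) signaling: the ligands Fgf4, Fgf8, Fgf9, Fgf17, Fgf10 and Fgf18 and the receptors Fgfr1, Fgfr2 and Fgfr3. Every listed peak with its summit within 100 kb of an annotated transcription start site (TSS) of any of these genes was taken, whatever its false discovery rate (FDR), which gave 61 of the 17149 peaks in the list. Of these, 8 were chosen only through a remote start of Fgfr2 and are described apart, which left 53. Chromatin immunoprecipitation and sequencing (ChIP-seq) recovers the DNA fragments to which a protein is attached. Here it was done with anti-FLAG antibody on forelimb buds of E10.5 embryos (32 to 35 somites) whose endogenous Gli3 gene carries an N-terminal 3XFLAG epitope tag. There were 2 ChIP replicates and 1 input library of chromatin without immunoprecipitation, and the data are 1 peak list without values per replicate. The list is filed under ChIP replicate 1, and it was assumed, from the methods of the study, to be a joint call of both replicates.

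The mice were kept on a mixed background, and the genotype label of the libraries reads wild type although the allele is tagged. Each reaction held limb buds pooled from 2 litters, dissociated with Liberase, and libraries were amplified with 15 PCR cycles. Whole buds hold ectoderm as well as mesenchyme, so the tissue in which a peak was occupied cannot be told apart. The list holds no read totals, and the study states only a minimum depth. Without values for each replicate, no value carries a replicate error, and the 95% Wilson intervals given for shares cover only the counting error over peaks.

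FGF ligands are secreted proteins that bind receptor tyrosine kinases on neighboring cells. In the limb bud the apical ectodermal ridge, a thickened strip of ectoderm at the distal edge, makes Fgf8, Fgf4, Fgf9 and Fgf17, and these sustain the mesenchyme beneath it. That mesenchyme makes Fgf10, which signals back to the ridge through the IIIb splice form of Fgfr2, while Fgfr1 is the main receptor in the mesenchyme. GLI3 relays Hedgehog (HH) signals to target genes, mostly as a repressor where the signal is missing, and in the limb bud HH and ridge FGFs sustain each other in a feedback loop.

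A GLI motif was defined as the 9 letters GACCACCCA, on either strand, with at most 1 mismatch, within 250 bp of the summit of a peak. GLI3 peaks are the listed peaks with an FDR under 0.05. Within 250 bp of a summit, the sequences below are the only motif matches in GLI3 peaks near the 9 genes. The match is in capitals. The Fgf10 match lies on the plus strand at chr13:118715130-118715138 (mm10), 137 bp from the summit of its peak. That summit lies in the 5′ UTR of Fgf10, after which the sequence is labeled. The printed stretch is chr13:118715120-118715148. The match in the Fgf4 window lies on the minus strand at chr7:144941306-144941314, 172 bp from the summit of a peak beside Ccnd1. Its printed stretch is chr7:144941280-144941340. Both matches carry the same change from the consensus, A2G, counted from 1 at the 5′ end of the consensus.
Fgf10 5′ UTR: ctactgccgcGGCCACCCAcgtccactgt
Fgf4 window, beside Ccnd1: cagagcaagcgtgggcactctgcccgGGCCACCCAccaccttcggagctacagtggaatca

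The next sequences show where a GLI3 peak lay over the promoter of its own gene. Each is the 250 bases before the RefSeq TSS (GRCm38.p6; for Fgfr3 the first of its 2 starts), with the bases inside a GLI3 peak in capitals. The table of promoters used for them held 6 of the 9 genes, and GLI3 peaks reached a promoter of 3 of these. Of all 32851 promoters in that source, 9.63% overlapped a GLI3 peak in the same 250 bases. That share counts promoters and not genes, and the promoter of the second Fgfr3 start was not overlapped. For Fgf10 (chr13:118714449-118714698, plus strand) 151 of the 250 bases lay inside a peak, for Fgf9 (chr14:58072436-58072685, plus strand) 114, and for Fgfr3 (chr5:33721474-33721723, plus strand) 174. They differ in base composition, with a GC content of 61.2% for Fgf10, 44.8% for Fgf9 and 66.8% for Fgfr3, and with 8, 11 and 19 CpG dinucleotides. None of the 3 holds a GLI motif, and 5.79% of all promoters do.
Fgf10 promoter: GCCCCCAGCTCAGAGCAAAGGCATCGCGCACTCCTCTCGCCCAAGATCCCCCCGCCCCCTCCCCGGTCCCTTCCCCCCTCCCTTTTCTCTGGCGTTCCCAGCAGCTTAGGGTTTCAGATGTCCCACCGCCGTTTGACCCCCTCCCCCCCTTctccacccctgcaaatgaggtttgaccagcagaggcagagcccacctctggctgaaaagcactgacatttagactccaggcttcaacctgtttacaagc
Fgf9 promoter: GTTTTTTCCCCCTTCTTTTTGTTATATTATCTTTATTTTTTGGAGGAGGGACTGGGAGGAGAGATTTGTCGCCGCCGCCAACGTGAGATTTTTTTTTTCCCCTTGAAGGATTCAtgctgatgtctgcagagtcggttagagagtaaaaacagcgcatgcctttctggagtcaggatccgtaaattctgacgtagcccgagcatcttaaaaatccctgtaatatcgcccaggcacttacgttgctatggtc
Fgfr3 promoter: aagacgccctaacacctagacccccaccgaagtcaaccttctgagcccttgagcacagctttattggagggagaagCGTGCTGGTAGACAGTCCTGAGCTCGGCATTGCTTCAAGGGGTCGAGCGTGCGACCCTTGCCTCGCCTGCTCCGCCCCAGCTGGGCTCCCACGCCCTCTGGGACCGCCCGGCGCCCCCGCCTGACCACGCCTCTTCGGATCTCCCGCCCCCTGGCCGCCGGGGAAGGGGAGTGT

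GLI3 peaks lay within 100 kb of 8 of the 9 genes once the remote Fgfr2 start was set aside, and Fgfr2 itself was the exception. By the rule as given, with that start, there were 30 GLI3 peaks near all 9 genes. Without it there were 24, of 53 listed peaks, which is 45.3% (interval 32.7% to 58.5%). In the whole list 42.5% of peaks passed the same FDR, so listed peaks near FGF genes passed it at about the general rate. Of all 21938 protein-coding genes, 52.2% had at least 1 GLI3 peak within 100 kb, against 8 of 9 here. At least 3 GLI3 peaks lay near 6 of the 9 genes and near 16.6% of all protein-coding genes. The windows held 1.32 GLI3 peaks per 100 kb (1.49 with the remote start), against 0.585 over the windows of all protein-coding genes.

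The windows around these genes also hold other genes, so the nearest coding gene was found for each peak. The FGF gene itself was the nearest protein-coding gene for 12 of the 24 GLI3 peaks, and these peaks belonged to Fgf9, Fgf10, Fgfr1 and Fgfr3 alone. Over all pairs of a protein-coding gene and a GLI3 peak within 100 kb, the gene was the nearest in 23.8%. For the other 12 peaks, near Fgf4, Fgf8, Fgf17, Fgf18 and in part the receptors, another gene was nearest, and 9 of those 12 summits were less than 1 kb from a TSS of that gene. Over all such pairs the share was 72.3%, close to these 9 of 12. A GLI3 peak overlapped the promoter of the member itself (2 kb before to 1 kb after a TSS) for the same 4 genes, against 17.2% of all protein-coding genes. Which gene a peak acts on was not measured.

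**Figure D1:**
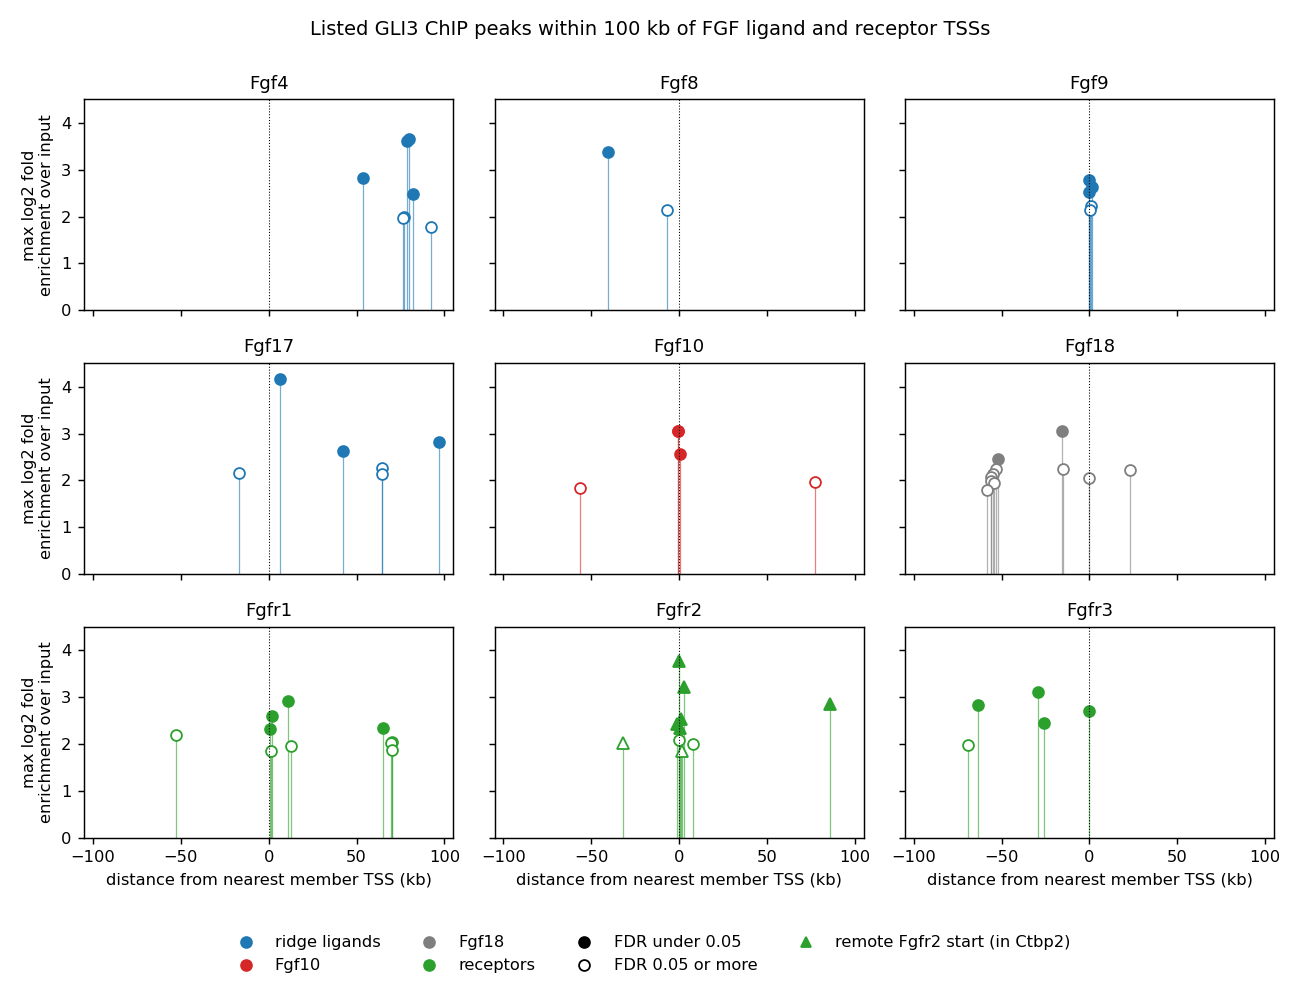
Listed peaks by distance from the nearest TSS of the member (x axis, kb, positive values downstream in the direction of transcription) and maximum log2 fold enrichment over input (y axis, from 0). Filled symbols are GLI3 peaks (FDR under 0.05), open symbols are the other listed peaks, and triangles are peaks chosen through the remote Fgfr2 start. The GLI3 peaks of Fgf9 and Fgf10 sit at the TSS, while those of Fgf4 lie 53856 to 82016 bp downstream of it.

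Among the ridge ligands, 11 GLI3 peaks were found near Fgf4, Fgf8, Fgf9 and Fgf17, but only the 3 at Fgf9 were nearest to the ligand. Fgf9 makes a ligand that in other organs is known to pass from epithelium to mesenchyme. Its peaks lay at chr14:58074900-58075149, chr14:58076250-58076599 and chr14:58072000-58072549, with log2 fold enrichments of 2.78, 2.63 and 2.52. This value is the highest log2 ratio of ChIP to input that the authors list for any window inside a peak, and peaks are ranked by the T statistic of the caller, with 1 as the strongest. Their summits were 168 bp before, 1372 bp after and 419 bp before the nearest of the 3 annotated starts, all inside introns of Fgf9 transcripts. The FDR rose from 0.000315 to 0.0114 over these 3 peaks. Another 2 listed peaks in the same gene had FDRs of 0.133 and 0.233 and did not count as GLI3 peaks. All 5 listed peaks of the window were nearest to Fgf9, and 1 other coding gene has a TSS in it.

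Fgf4 is a ridge ligand that follows Fgf8 in time and depends on HH signaling through the mesenchyme. Its window had 7 listed and 4 GLI3 peaks, and none lay within 50 kb of its TSS. The strongest pair lay at chr7:144940950-144942349 and chr7:144939700-144940799, with log2 fold enrichments of 3.65 and 3.61, 80096 and 78711 bp downstream of Fgf4. Their summits were 1613 and 228 bp from a TSS of Ccnd1, which encodes cyclin D1, a driver of the G1 phase. A weaker peak with a value of 2.47 also lay beside Ccnd1, 3533 bp from its TSS. The remaining peak, with a value of 2.82, had its summit in a coding exon of LTO1, 62 bp from the start of that gene. The 4 Fgf4 peaks also lay within 100 kb of Fgf15, and the peak at LTO1 within 100 kb of Fgf3. Between the Fgf4 TSS and the LTO1 peak the list held no peak of any FDR.

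Fgf8 is the ridge ligand made along the whole length of the ridge, and its window was the poorest among the ridge ligands, with 2 listed peaks and 1 GLI3 peak. That peak (chr19:45782950-45783799) had a log2 fold enrichment of 3.38 and ranked 955 in the list. Its summit lay 40337 bp upstream of Fgf8, in the 5′ UTR of Mgea5, the gene of the enzyme that removes O-GlcNAc from proteins. The other listed peak was 6732 bp upstream of Fgf8 and 56 bp from a TSS of Npm3, with an FDR of 0.233. No listed peak was nearest to Fgf8. Of all protein-coding genes, 52.2% had as many GLI3 peaks as Fgf8 or more.

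Fgf17, a close relative of Fgf8, had the most enriched peak of the 53, but in a gene-dense window with 7 other coding genes. This peak (chr14:70635100-70636149) ranked 159 with a log2 fold enrichment of 4.17. It lay 6547 bp downstream of the Fgf17 TSS and 271 bp from a start of Dmtn, which encodes the actin-bundling protein dematin. The others were at the starts of Reep4 (2.82, 14 bp away) and Fam160b2 (2.62, 118 bp away). Their distances from Fgf17 were 97017 and 42537 bp. The Reep4 peak was the GLI3 peak closest to the limit of 100 kb on the inside, and the closest on the outside lay 124429 bp upstream of Fgf17, beside Xpo7, with a log2 fold enrichment of 2.89. Another 3 listed peaks, at Nudt18 and near Npm2, had FDRs from 0.0704 to 0.233.

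Fgf10, the mesenchymal ligand without which no limb bud grows out, had all its GLI3 peaks at its own promoter. The peaks chr13:118714150-118714599 and chr13:118713650-118713949 had log2 fold enrichments of 3.05 each and lay 357 and 872 bp upstream of the TSS, in an intron of the overlapping noncoding gene Gm16263. The third peak, chr13:118714750-118715849, had a value of 2.55, an FDR of 0.00706 and its summit 298 bp downstream, in the 5′ UTR. The summits thus spanned 1170 bp, and called bases made up 84.1% of the stretch from the start of the first peak to the end of the last. Fgf10 was the only coding gene with a TSS in its window. The remaining 2 listed peaks lay 56507 bp upstream and 77453 bp downstream, with FDRs of 1 and 0.727.

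Fgf9 and Fgf10 each had 3 GLI3 peaks within 2 kb of a TSS, a description chosen after the values were seen. Of all protein-coding genes, 0.447% had that many. The arrangement differed between them, since the Fgf9 summits spanned 4220 bp over 2 of its 3 starts and the Fgf10 summits surrounded a single start. Neighboring calls need not be separate binding events.

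Fgf18, of the same subfamily as Fgf8 and Fgf17 and known mainly for its part in cartilage and bone, was kept apart from the ridge ligands. It had the most listed peaks, 11, and only 2 GLI3 peaks, neither nearest to it. These lay at chr11:33163050-33163599, 86 bp from a TSS of Npm1 (nucleophosmin), with a log2 fold enrichment of 3.06, and at chr11:33199550-33199849, 4037 bp from Tlx3 (a homeobox factor), with 2.45. A listed peak 402 bp upstream of Fgf18 itself had a value of 2.05 and an FDR of 0.438. The other listed peaks around Fgf18 were mostly nearest to Tlx3.

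Fgfr1, the main receptor of the limb mesenchyme, had 10 listed and 4 GLI3 peaks, of which 3 lay in its own introns. The strongest, chr8:25543200-25543899, had a log2 fold enrichment of 2.92 and lay 11256 bp from the nearest of 5 annotated starts, outside any promoter window. Closer to a start were chr8:25520300-25520649 (2.60, 1722 bp away) and chr8:25519400-25519649 (2.33, 707 bp away). The last of these had an FDR of 0.0374, the value just inside the threshold, which it shared with the Letm2 peak below and with a peak at the remote Fgfr2 start. Just outside it was the listed peak at Nudt18 in the Fgf17 window, with an FDR of 0.0704 and a value of 2.27. The fourth GLI3 peak of Fgfr1, at the start of Letm2, had a value of 2.35 and its summit 154 bp from that start. Listed peaks at Nsd3, a histone methyltransferase gene, had FDRs of 0.438 or more.

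Fgfr3, known best as a brake on growth of cartilage, had 5 listed peaks and 4 GLI3 peaks in a window with 7 other coding genes. A promoter peak, chr5:33721550-33722049, had its summit 27 bp upstream of a start of Fgfr3, with a log2 fold enrichment of 2.71 and an FDR of 0.00113. The summit also lay in an exon of the noncoding gene G630022F23Rik. A pair of intergenic peaks lay farther upstream with Fgfr3 as the nearest coding gene: chr5:33692400-33692799 at 29162 bp (3.11) and chr5:33695550-33695699 at 26102 bp (2.44). The former ranked 1610 and was the most enriched of the 12 peaks nearest to their member. The last peak (2.83) lay 86 bp from a TSS of Tacc3, in the 5′ UTR of Tmem129. The remaining listed peak, at Slbp, had an FDR of 0.470.

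Fgfr2, the receptor through which the ridge ectoderm responds to Fgf10, had no GLI3 peak near its ordinary starts. The listed peaks there lay 274 bp upstream and 7859 bp downstream of a TSS, at ranks 10859 and 12672 and with FDRs of 0.244 and 0.461. The annotation has a further start for a single transcript at position 133123350 of chromosome 7, 2.86 Mb upstream of the next, with the weakest support level (5). It lies 17 bp from a TSS of Ctbp2, which encodes a transcriptional corepressor, and RefSeq has no Fgfr2 transcript that starts there. The rule took 8 listed and 6 GLI3 peaks through this start, of which the strongest, chr7:133123050-133124149, had a log2 fold enrichment of 3.77 and its summit in the 5′ UTR of Ctbp2. The 6 values ran from 2.34 to 3.77, and these peaks lay in or beside Ctbp2, so they were kept out of the counts for Fgfr2 and for the receptors except where stated.

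**Figure D2:**
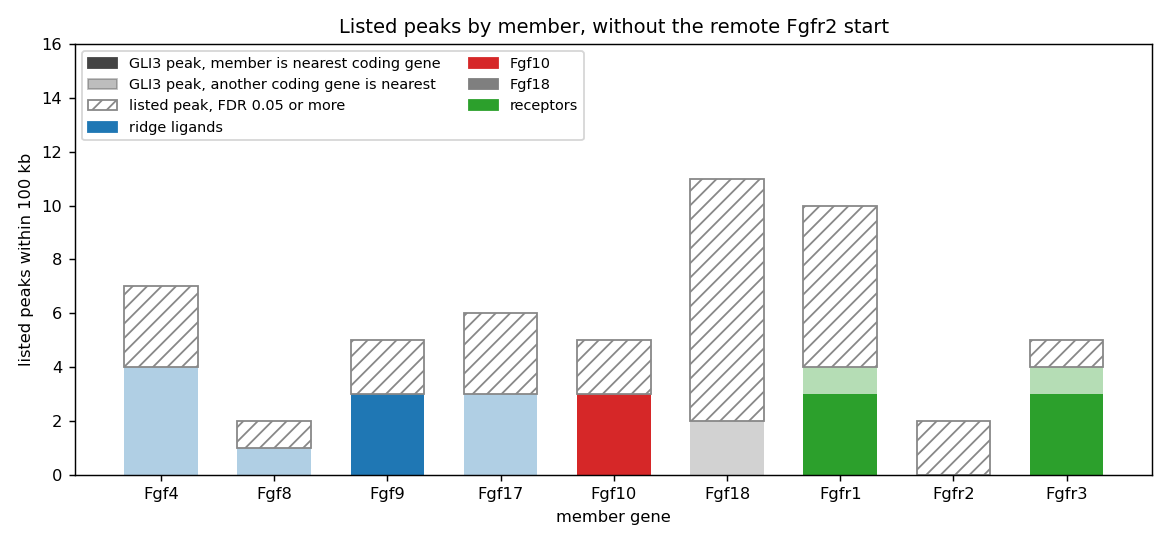
Number of listed peaks within 100 kb of each member (y axis), without the remote Fgfr2 start. Solid bars are GLI3 peaks (FDR under 0.05) nearest to the member, pale bars are GLI3 peaks nearest to another coding gene, and hatched bars are listed peaks with a higher FDR. Solid bars appear at Fgf9, Fgf10, Fgfr1 and Fgfr3, with 3 peaks each.

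The 3 classes were contrasted by position and by enrichment. The nearest coding gene was the member for 3 of 11 GLI3 peaks of the ridge ligands, all at Fgf9, for 3 of 3 at Fgf10 and for 6 of 8 of the receptors. The windows differ in how many other coding genes have a TSS in them. There were 0 for Fgf10, 1 for Fgf9, 4 each for Fgf4 and Fgf8, and 7 for Fgf17. Among receptors with GLI3 peaks, Fgfr1 had 2 such genes and Fgfr3 had 7. The member was nearest to 3 of 4 GLI3 peaks at both receptors, and to 0 of 3 at Fgf17. Class and gene density were not separated, and the part of density in these shares was not tested. The median log2 fold enrichment was 2.82 for the ridge ligands (range 2.47 to 4.17), 3.05 for Fgf10 (2.55 to 3.05) and 2.66 for the receptors (2.33 to 3.11). The ranges overlapped, and the difference of receptors from ridge ligands, -0.16 with or without the remote start, changed sign at an FDR under 0.01, to 0.0099 without that start and 0.030 with it. All GLI3 peaks in the list had a median of 2.69 (interquartile range 2.47 to 3.06), so the 24 peaks near FGF genes, with a median of 2.80, lay around the middle of the list.

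The highest values near ridge ligands came from peaks nearest to other genes. Of the 24 peaks, 4 (16.7%) ranked among the first 1000 of the list, near the 13.7% of all GLI3 peaks that did. These were the pair at Ccnd1, the peak at Mgea5 and the peak at Dmtn. For the 12 peaks nearest to their member the log2 fold enrichment reached 3.11 at most, and 22.1% of all GLI3 peaks ranked higher than the best of them. For scale, the strongest peaks near the HH targets Ptch1 and Gli1 had values of 6.05 and 5.76 and ranked 2 and 7.

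**Figure D3:**
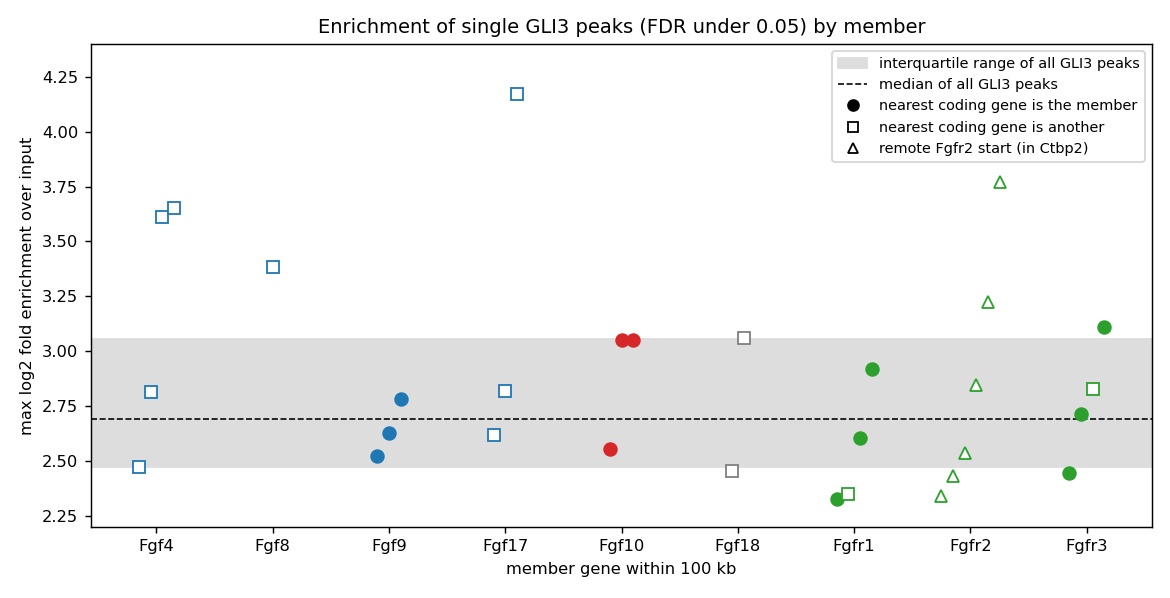
Maximum log2 fold enrichment over input (y axis) of each GLI3 peak (FDR under 0.05), by member gene (x axis). Filled circles are peaks nearest to the member, open squares are peaks nearest to another coding gene, triangles belong to the remote Fgfr2 start, and the dashed line and gray band give the median and interquartile range of all GLI3 peaks. The filled circles stay at or below 3.11, and the 4 squares above that value belong to Fgf4, Fgf8 and Fgf17.

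GLI motifs were found in 2 of the 24 peaks, 8.33% (interval 2.32% to 25.8%), 1 in the Fgf4 window and 1 at Fgf10. Of all GLI3 peaks 20.8% held a motif, which lies inside that interval, and of windows 2 kb to either side of the summits 10.7% did. Within 250 bp of the summit, no GLI3 peak within 100 kb of the 9 genes held the exact consensus. None near a receptor or Fgf9 held a match there. Among the other 29 listed peaks, without the remote start, the list held 4 matches: 2 in introns of Ccnd1, 1 in an intron of Tlx3 and 1 far upstream of Fgf10. That these letters are missing from a window says nothing on how GLI3 was held there.

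The peaks were also placed against promoters. A promoter window of some protein-coding gene was overlapped by 17 of the 24 peaks, 70.8% (interval 50.8% to 85.1%), and by 52.6% of all GLI3 peaks, which lies inside that interval. Of the 7 others, 5 were nearest to their member: an Fgf9 peak, a pair in Fgfr1 and the upstream pair of Fgfr3. The GC content within 250 bp of the summit had a median of 63.3% in the 24 peaks and 58.7% in all GLI3 peaks. It was lowest, 44.9%, in the peak 872 bp upstream of Fgf10 and reached 75.4% in the weaker upstream peak of Fgfr3. Over all GLI3 peaks the median was 65.7% in promoter peaks and 50.3% in the others, so GC content moved with promoter position. Their part in the counts was not tested.

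The other genes of the FGF pathway were counted in the same way. Of 16 further ligands, 10 had a GLI3 peak within 100 kb, and only Fgf11 had it at its own promoter. Of the 2 further receptors both had a GLI3 peak, and Fgfrl1, a receptor without the kinase domain, had it at the promoter. Of 9 feedback and response genes 7 had GLI3 peaks, and all 7 had at least 1 at their own promoter. Beside these counts stand the 9 members, of which 8 had a GLI3 peak within 100 kb and 4 at their own promoter, and all protein-coding genes, with 52.2% and 17.2%. The groups are small and were not tested against each other.

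The 5 highest-ranked peaks of these other genes lay near Fgf5, Il17rd, Fgf11 and Dusp6. The Fgf5 peak (4.52) was 86607 bp away from Fgf5 and 379 bp from Prdm8, and the Fgf11 peak (4.13) was 36645 bp away and 22 bp from Tmem256. Those of Il17rd, an inhibitor of FGF receptor signaling, were 895 and 585 bp from its TSS (4.25 and 4.15). That of Dusp6, a phosphatase that switches off ERK, was 124 bp from its TSS (3.93). The ligands Fgf5 and Fgf11 had their strongest peak at another gene, as did Fgf4, Fgf8 and Fgf17. This is not particular to these ligands. Over all pairs of a protein-coding gene and a GLI3 peak within 100 kb, the gene was the nearest in only 23.8%.

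**Figure D4:**
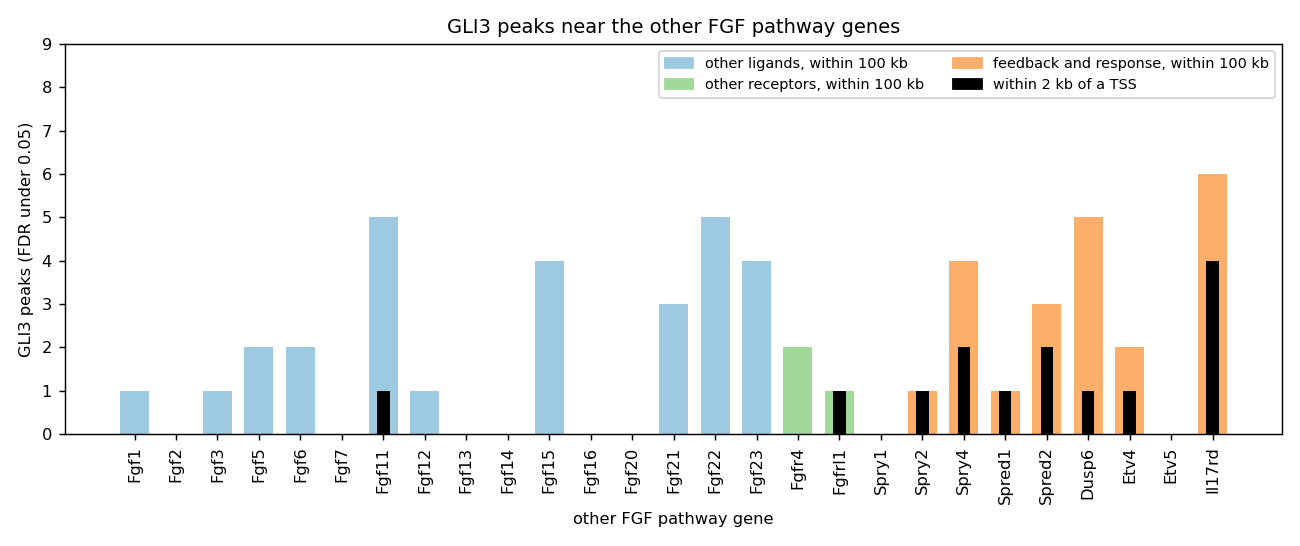
Number of GLI3 peaks (FDR under 0.05) within 100 kb of a TSS (colored bars) and within 2 kb of a TSS (black bars) for 27 other FGF pathway genes. Il17rd has the tallest bar, with 6 peaks and 4 of them within 2 kb, and 8 genes have none.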

How the data were processed

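The data were 1 peak list from 2 GLI3-FLAG ChIP replicates and 1 input of E10.5 forelimb buds. The authors called peaks with CisGenome, and the list, filed under replicate 1, was taken as a joint call of both replicates, which it does not state. The submitters' processing notes name Bowtie2 2.2.5 and mm10. For each peak the deposited list gives an FDR (a q-value) and the authors' maximum log2 fold enrichment over input. It also gives the authors' T statistic, a score that sets the rank, and the deposited −log10 Poisson p-value, which were not used for calls. The study gives a minimum depth for its libraries, but the exact depth of each is not in the list.

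A GLI3 peak was a listed peak whose FDR was under 0.05. Coordinates are printed as in the list. They were compared with GRCm38.p6: 0 peak ends lay beyond a chromosome end, and 5 peaks on unplaced sequence were left out. TSSs were those of every protein-coding gene transcript in GENCODE M21 (basic set). Promoters ran from 2 kb before to 1 kb after a TSS. GLI motifs were searched on both strands within 250 bp of the summit with at most 1 mismatch, with windows 2 kb away as local background.

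Without values per replicate no test across samples was possible, so counts, medians and Wilson intervals describe this list. Named genes were the members, the coding gene nearest to each of their peaks, the other pathway genes with the 5 highest-ranked peaks, and Ptch1 and Gli1. Xpo7, Gm16263, G630022F23Rik, Tmem129, Fgfrl1, Fgf3 and Fgf15 are named outside this rule, as neighbors of a peak or members of a count. The members and lists were chosen with earlier results of these data known. Alternatives changed the FDR, distance, TSS source, motif, promoter window and nearest gene. The code was tested on simulated data. Python 3.11.15, numpy 2.4.6, pandas 2.3.3 and scipy 1.17.1 were used.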

Additional observations from a re-analysis of the deposited data

How the results depend on the processing

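Counts were compared within a factor of 1.5 and shares and medians with their 95% intervals, each against the rule as given, which includes the remote Fgfr2 start. Of 95 alternative values, 74 stayed within these bounds. An FDR under 0.01 left 1 GLI3 peak near Fgf18 and, with the remote start, 9 of 14 near receptors. It turned the difference in median log2 fold enrichment of receptors from ridge ligands from -0.16 to 0.030. Without the remote start the same FDR left 18 peaks near the members and 5 of 8 near receptors, with a difference of 0.0099. The cause of the change of sign was not tested. Taking every listed peak with the remote start gave 61 peaks near the members, 20 near ridge ligands, 5 near Fgf10, 11 near Fgf18 and 25 near receptors, with a median of 2.27. Without that start it gave 53 near the members, 17 of them near receptors, with a median of 2.24. Within 50 kb there were 34 listed peaks, 6 GLI3 peaks near ridge ligands and 1 near Fgf18. With the exact consensus, and likewise within 100 bp of the summit, 0% of the GLI3 peaks held a motif. Searched over the whole peak, 10% held a motif, against 6.67% by the rule as given. The other sources of starts were chosen after seeing the data: leaving out the remote Fgfr2 start, also together with either FDR setting, RefSeq starts and the comprehensive annotation. At an FDR under 0.05 the first lowered the GLI3 peaks near receptors from 14 to 8, RefSeq starts gave 8 as well, and the comprehensive annotation moved no count by over 1.5 times. No paired analysis was possible because no value is given per replicate, and for the same reason no replicate could be left out. A peak missing at Fgf8 or Fgfr2 was not detected in this list, which does not show that it is absent.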

Other observations

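Beyond the window, between 100 and 250 kb from a TSS, 13 further GLI3 peaks lay around the members, and Fgf8 and Fgf10 had none. A peak in that band was thus found for 7 of 9 members, and for 57.3% of all protein-coding genes. Fgfr1 had 3, all intergenic and upstream. The strongest of them, chr8:25333900-25334349, lay 184612 bp upstream with a log2 fold enrichment of 3.44 and ranked 851, above every peak within 100 kb of Fgfr1. The next, chr8:25343300-25343799, lay 175257 bp upstream with a value of 3.13. Tacc1 was the nearest coding gene to both, 132605 and 141960 bp away. The third, 149767 bp upstream, was nearest to Fgfr1 itself, held a GLI motif and had a value of 2.33.

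Fgfr2, with no GLI3 peak within 100 kb of its ordinary starts, had 2 farther away. The peak 201604 bp downstream of a TSS (2.58) was intergenic with Fgfr2 as its nearest coding gene, and the peak 159974 bp upstream (2.36) lay in an intron of Ate1. Fgf17 had 3 such peaks, of which an intergenic peak 170887 bp downstream ranked 494 (3.71) and lay 13891 bp from Phyhip. For Fgf4 the peak 169681 bp downstream (2.78) was 91198 bp from Ccnd1. For Fgf18 a peak 183053 bp downstream (2.69) held a GLI motif.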
